A study of Mus musculus with 4 samples.

Results

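Promoter regions that were called open in cells given TGFβ for 2 h, and not in cells given vehicle, are described here in mouse mammary epithelial cells. Accessible chromatin had been mapped by ATAC-seq, in which the Tn5 transposase cuts and tags DNA that is free of nucleosomes, and the result was deposited as lists of peak intervals. Narrow intervals under 150 bp were dropped, neighbours less than 1000 bp apart were merged, and a region of the TGFβ list was kept when it shared no base with a region of the vehicle list and reached within 1000 bp of an annotated transcription start (mouse build mm9, GENCODE vM1). This gave 2355 regions, of 38532 in the whole TGFβ list and of 10948 regions of that list at a start. The members were thus chosen by presence in the TGFβ list, absence from the vehicle list and closeness to a start, and these are descriptions and not findings. In all, 20184 TGFβ regions (52.4%) overlapped no vehicle region. The figure was 21.5% for regions at a start and 64.6% for the 27584 distal regions, which lie farther from every start. A further 8593 regions at a start overlapped a vehicle region and are called shared promoter regions below, and 17829 regions were distal and not in the vehicle list.

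NMuMG is an established line of normal murine mammary gland epithelial cells. For the experiment that chose the members, cells in complete medium (serum and insulin present) received 5 ng/ml TGFβ1 or vehicle for 2 h. The label of the vehicle sample gives Tris-HCl and BSA, while the study's methods give HCl and BSA. A second experiment took serum and insulin away for 6 h before TGFβ1 at the same dose, or vehicle, was added for 10 min. Its TGFβ sample carries a treatment label that says 2 h, while its title and protocol say 10 min, and the title was followed. The labels of both samples name the same list, so that list is called the 10 min list here and stands for the experiment, not for TGFβ or vehicle. Each condition was 1 sample, with 1 list for each of the complete medium conditions and 1 for the whole 10 min experiment. The study's methods speak of peaks kept for reproducibility between replicates, and how replicates enter these lists could not be settled. No test between conditions was therefore possible, and the 95% Wilson intervals given with shares cover the counting of regions alone, with neighbouring regions not independent of each other.

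A promoter is the stretch of DNA around the site where RNA polymerase II begins a transcript, and many mammalian promoters lie in stretches rich in the CpG dinucleotide that tend to be open in every cell type. A gene can have several promoters, which give transcripts with different first exons. TGFβ signals through receptor kinases to Smad2 and Smad3, which enter the nucleus with Smad4 and bind DNA together with other factors such as those of the AP-1 family, and in mammary epithelial cells it is known for inducing the epithelial to mesenchymal transition.

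Stretches just upstream of 10 members' starts are printed as examples of sequence and do not stand for all members. Only members over a start could be printed, which 57.4% of members were. Each stretch lies inside the member, ends 1 base before an annotated start that the member covers, is free of annotated exons, is at most 200 bases long, and runs 5′ to 3′ on the strand of the gene. In the first set the CG dinucleotides are in capitals. Myc (the growth-promoting transcription factor; chr15:61816746-61816945, plus strand), Nr4a1 (an immediate-early nuclear receptor; chr15:101097077-101097276, plus strand) and an alternative start of Tsc22d1 (a leucine zipper protein known as a TGFβ target; chr14:76814568-76814767, plus strand) hold 11, 25 and 18 of them.
Myc: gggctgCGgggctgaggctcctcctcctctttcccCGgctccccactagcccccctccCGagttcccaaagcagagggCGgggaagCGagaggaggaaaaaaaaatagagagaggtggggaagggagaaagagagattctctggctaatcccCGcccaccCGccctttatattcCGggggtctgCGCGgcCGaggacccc
Nr4a1: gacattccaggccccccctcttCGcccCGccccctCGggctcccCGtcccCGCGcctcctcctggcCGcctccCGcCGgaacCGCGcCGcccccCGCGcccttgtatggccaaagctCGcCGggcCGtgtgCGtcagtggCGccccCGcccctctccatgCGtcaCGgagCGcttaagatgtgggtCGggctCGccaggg
Tsc22d1: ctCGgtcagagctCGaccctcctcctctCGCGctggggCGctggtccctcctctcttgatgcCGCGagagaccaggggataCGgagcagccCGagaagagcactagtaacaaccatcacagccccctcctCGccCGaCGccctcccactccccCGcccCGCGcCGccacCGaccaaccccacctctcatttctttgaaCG
Lamb3 (a laminin chain of the epithelial basement membrane; chr1:195127951-195128150, plus strand), a downstream start of Capg (an actin filament capping protein; chr6:72497734-72497933, plus strand), Ccl2 (a monocyte chemokine; chr11:81848899-81849072, plus strand) and an alternative start of Nuak1 (a kinase related to AMPK; chr10:83855134-83855333, minus strand) hold 0, 2, 2 and 5.
Lamb3: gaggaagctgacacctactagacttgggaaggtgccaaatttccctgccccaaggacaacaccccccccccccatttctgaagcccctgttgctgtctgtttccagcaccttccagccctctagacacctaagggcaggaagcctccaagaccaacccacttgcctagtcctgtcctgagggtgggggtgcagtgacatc
Capg: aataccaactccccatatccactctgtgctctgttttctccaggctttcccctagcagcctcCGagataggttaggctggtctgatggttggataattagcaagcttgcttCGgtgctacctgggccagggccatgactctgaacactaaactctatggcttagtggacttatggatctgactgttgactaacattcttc
Ccl2: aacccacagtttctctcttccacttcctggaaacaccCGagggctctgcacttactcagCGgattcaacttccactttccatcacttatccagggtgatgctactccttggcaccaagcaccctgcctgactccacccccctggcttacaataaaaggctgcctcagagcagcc
Nuak1: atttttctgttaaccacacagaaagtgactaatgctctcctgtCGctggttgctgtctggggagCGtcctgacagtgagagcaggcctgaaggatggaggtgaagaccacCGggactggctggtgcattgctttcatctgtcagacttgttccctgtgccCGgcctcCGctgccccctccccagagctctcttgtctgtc

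In a second set the capitals mark a match to TGANTCA, the core letters of the AP-1 motif, which was looked for on both strands. Sox9 (a transcription factor of progenitor cells; chr11:112643349-112643537, plus strand), an alternative start of Tns1 (tensin 1, which links actin to focal adhesions; chr1:74045043-74045116, minus strand) and 2010003K11Rik (chr19:4498584-4498783, minus strand) hold 1 match each. This set holds only stretches with a match and is no guide to how common matches were among members. A match describes the letters and is not evidence that a factor was bound.
Sox9: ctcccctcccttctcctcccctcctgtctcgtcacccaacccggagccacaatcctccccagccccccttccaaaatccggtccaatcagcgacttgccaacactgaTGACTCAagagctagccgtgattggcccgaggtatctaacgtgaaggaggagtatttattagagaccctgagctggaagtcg
Tns1: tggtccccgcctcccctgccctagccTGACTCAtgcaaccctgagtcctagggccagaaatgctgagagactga
2010003K11Rik: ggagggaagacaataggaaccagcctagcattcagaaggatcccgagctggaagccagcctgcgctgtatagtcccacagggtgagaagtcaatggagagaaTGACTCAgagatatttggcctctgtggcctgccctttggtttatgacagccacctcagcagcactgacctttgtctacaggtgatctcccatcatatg

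Most members lay at starts of protein-coding genes, but less often than shared promoter regions did. The nearest start belonged to a protein-coding gene for 2042 members (86.7%, 85.3 to 88.0) and for 93.9% of shared promoter regions (93.4 to 94.4). The remainder were spread over genes that yield no protein. Among members 104 had a processed transcript gene as the nearest, 70 (2.97%) a lincRNA, 54 (2.29%) a pseudogene, 25 (1.06%) a snoRNA, 21 (0.892%) a miRNA, 20 (0.849%) an snRNA and 19 another type. For shared promoter regions the lincRNA share was 2.44% (2.14 to 2.79), within the members' interval of 2.36 to 3.74, whereas the pseudogene share of 0.675% and the snoRNA share of 0.175% lay below the members' intervals. Within protein-coding genes the nearest transcript was itself coding for 1538 of 2042 members (75.3%), against 82.9% of shared promoter regions. A retained intron transcript was nearest for 206 members (10.1%), a processed transcript for 246 (12.0%) and a transcript subject to nonsense-mediated decay for 52 (2.55%). Antisense transcripts, which run against another gene, were nearest for 57 members (2.42%, 1.87 to 3.12) and for 1.04% of shared promoter regions (0.842 to 1.27).

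Nearness to a start was not the same as lying over it. The nearest start fell inside 1352 members (57.4%, 55.4 to 59.4) and inside 93.0% of shared promoter regions (92.4 to 93.5). The centre was within 100 bp of the start for 938 members (39.8%), over 100 bp upstream for 743 (31.5%) and over 100 bp downstream for 674 (28.6%). For shared promoter regions 52.8% of centres were within 100 bp. The members' centres lay in introns in 37.0% of cases and between genes in 28.6%, in coding exons in 8.37% and in other exons in 26.0%, and 22.0% of shared centres were intronic. How much the start was covered differed with the type of gene. It was covered by 61.1% of members at protein-coding genes, 52.9% at lincRNA genes, 22.2% at pseudogenes, 5 of 21 at miRNA genes and 3 of 25 at snoRNA genes. A wider region reaches a start more easily, and the part of width in these differences was not tested.

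**Figure D1:**
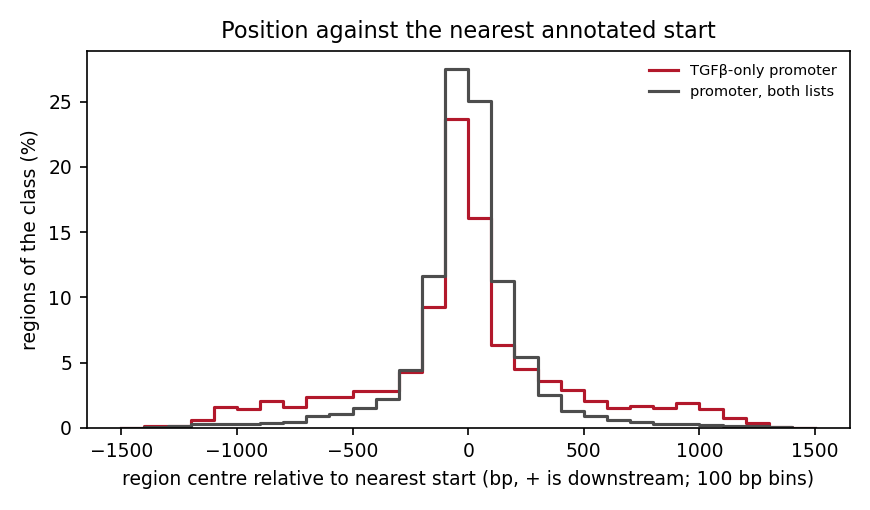
Distance in bp from the nearest annotated start to the centre of each region, in bins of 100 bp, as a share of its class; positive values lie downstream. The 2355 TGFβ-only promoter regions (red) peak at the start like the 8593 shared promoter regions (grey) but have longer tails, with 39.8% against 52.8% of centres within 100 bp.

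The members were narrower and scored lower than shared promoter regions. Their median width was 316 bp (quartiles 226 and 482), against 675 bp (476 and 919) for shared promoter regions and 278 bp (210 and 385) for TGFβ-only distal regions. The score, a scaled measure of reproducibility that the lists give from 540 to a cap of 1000, had a median of 775 in members. It stood at the cap in 375 members (15.9%), in 78.8% of shared promoter regions and in 13.6% of TGFβ-only distal regions. A single peak line made up 48.3% of members and 10.6% of shared promoter regions. These widths and scores come from the same list that chose the members and are given as a description. The vehicle list was also the shorter one, with 19648 regions against 38532. By the study's reporting, its library had somewhat more mapped and filtered reads than the TGFβ library. Whether a region missing from the vehicle list was closed or was open below the threshold of the list was not tested. Among 72 genes of cytosolic ribosomal proteins, which every cell uses (a group chosen after the data were seen), 61 had a vehicle region at a start, 65 a TGFβ region and 66 a region of the 10 min list. Members lay at 5 of these 72 genes, 4 of them without any vehicle region. Of all protein-coding genes 9.29% had a member. This share is no like comparison for the group, since a region that overlaps a vehicle region cannot be a member. A vehicle region lay at a start of 61 of the 72 genes, but of 9163 of the 22350 protein-coding genes. Whether the group was rich in members among genes without a vehicle region was not tested. Actg1, which encodes the γ-actin of every cell, had at its main start a member 354 bp wide with a score of 784 and a region in the 10 min list, but no vehicle region at any start.

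**Figure D2:**
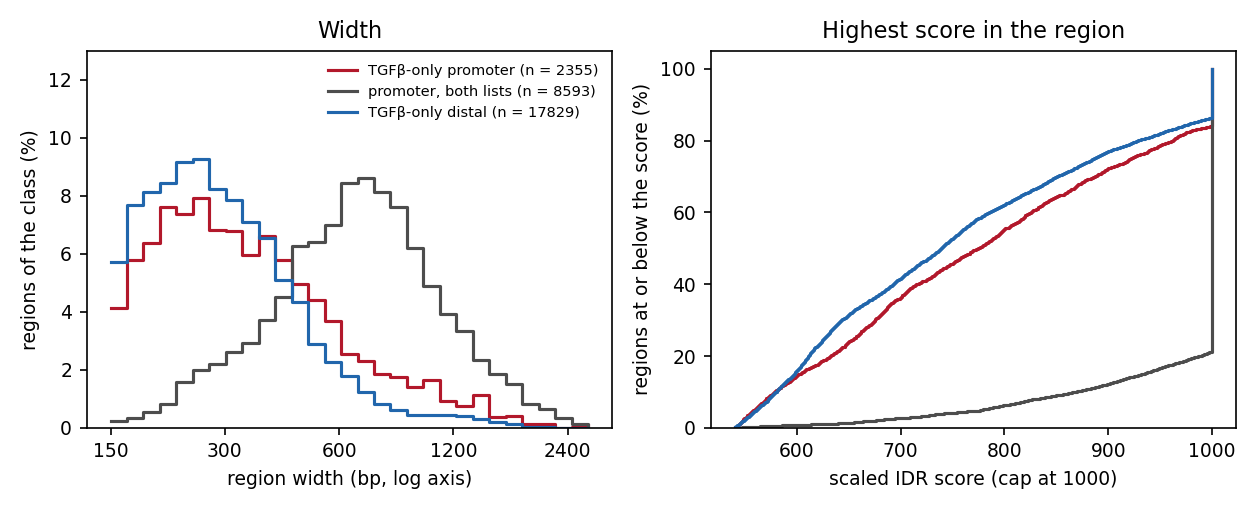
Left, distribution of region width in bp on a log axis, in % of each class; right, cumulative share of regions at or below each scaled IDR score. TGFβ-only promoter regions (red, median 316 bp) lie close to TGFβ-only distal regions (blue, 278 bp), and shared promoter regions (grey, 675 bp) are wider, with 78.8% of them at the cap of 1000.

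The limits of the rule were sharp in number but not in kind. Just inside the 1000 bp reach were regions at Stab1 (208 bp wide, score 793), Slc6a4 (213 bp, 657) and Chst4 (340 bp, 781). Just outside it, 1002 to 1008 bp away, were regions at A930001C03Rik (1097 bp, 818), Colq (167 bp, 574) and 7SK (353 bp, 882). On the other limit, the member at Samd14 (634 bp, 566) was 6 bp from a vehicle region, while a region at Samd5 (366 bp, 851) was left out for an overlap of 50 bp. Few members were this close, since the median gap to a vehicle region was 17050 bp and 64 members (2.72%) had one under 1000 bp away. A further check showed that 44 members (1.87%) overlapped a vehicle interval that had been dropped for being under 150 bp.

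The 10 min list was not used by the rule, and it held 1284 of the 2355 members (54.5%, 52.5 to 56.5). Of all TGFβ-only regions, 31.5% were in that list, and of TGFβ-only distal regions 28.5% (27.8 to 29.2). Shared promoter regions were in it in 98.0% of cases (97.7 to 98.3). Members thus stood between the other classes. The smaller opposite class, 232 promoter regions called with vehicle and not with TGFβ, had 142 in the 10 min list (61.2%, 54.8 to 67.2). Since the 10 min list also stands for starved cells given vehicle, presence in it says that the region was called in another experiment of the same line, and does not tell the treatments apart.

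Wider and higher scoring members were found more often in the 10 min list. Of members 150 to 249 bp wide 44.6% were present (41.1 to 48.2), of those 250 to 349 bp wide 43.4%, of those 350 to 499 bp wide 58.0%, of those 500 to 799 bp wide 72.7%, and of those of 800 bp or more 81.3% (75.6 to 85.9). At matched widths TGFβ-only distal regions stood lower throughout, at 22.8%, 25.6%, 33.3%, 43.9% and 53.9%. Members at the score cap were present in 77.3% (72.8 to 81.3) and the others in 50.2% (48.0 to 52.4). Distal regions gave 50.1% at the cap and 25.1% below it. Members thus stood above distal regions in each class of width and in both classes of score.

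**Figure D3:**
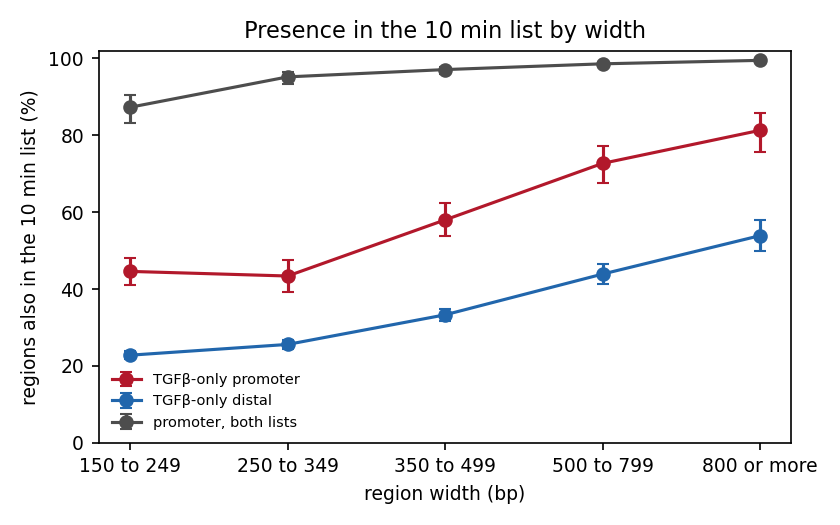
Share of regions that overlap a region of the 10 min list (%), by region width in bp, with 95% Wilson intervals as bars. TGFβ-only promoter regions (red) run from 44.6% to 81.3%, above TGFβ-only distal regions (blue, 22.8% to 53.9%) and below shared promoter regions (grey, 87.3% to 99.5%) in each width class.

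Members that lay over their start were in the 10 min list more often than those beside it. Of the 1352 that covered the start 70.8% were in the 10 min list (68.3 to 73.1), and of the 1003 that did not, 32.6% (29.8 to 35.6), a value near the 28.5% of distal regions. Shared promoter regions had the same order, with 98.6% over the start and 89.3% beside it. By gene type, 56.8% of members at protein-coding genes were present (54.6 to 58.9), 47.1% at lincRNA genes (35.9 to 58.7), 43.3% at processed transcript genes (34.2 to 52.9) and 33.3% at pseudogenes (22.2 to 46.6). The lincRNA interval overlaps that of protein-coding genes, while the intervals of processed transcript genes and pseudogenes lie below it. At miRNA genes 5 of 21 members were present, at snoRNA genes 7 of 25 and at snRNA genes 12 of 20.

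To set alternative against sole promoters, the starts of a gene were joined into promoters at gaps under 1000 bp. The nearest gene of 1336 members had several promoters (56.7%, 54.7 to 58.7), against 51.9% of shared promoter regions (50.8 to 52.9). The position among a gene's promoters differed more. Of these 1336 members 662 were at the most upstream promoter (49.6%, 46.9 to 52.2), while 79.7% of shared promoter regions at such genes were (78.5 to 80.9). In terms of the vehicle list, 982 members (41.7%) were at the sole promoter of a gene without a vehicle region, 869 (36.9%) at a promoter of a gene with several and no vehicle region at any of them, and 421 (17.9%) at an alternative promoter of a gene that had a vehicle region at another promoter. The last 83 (3.52%) had a vehicle region at the same promoter, within reach of one of its starts but apart from the member.

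Alternative promoters of genes with a vehicle region at another promoter were in the 10 min list in 44.4% of cases (39.7 to 49.2). The share was 53.0% at sole promoters (49.8 to 56.1), 60.3% at genes with several promoters and no vehicle region (57.0 to 63.5) and 63.9% where a vehicle region lay at the same promoter (53.1 to 73.4). In the same order, the start was covered by 45.8%, 57.4%, 64.2% and 44.6% of members, a description that rests on the same intervals as the rule. Downstream promoters gave a similar picture. Of 674 members at a downstream promoter 43.5% were in the 10 min list (39.8 to 47.2), and of the 662 at the most upstream one 67.1% (63.4 to 70.5). Shared promoter regions gave 95.1% and 98.6%, so the order was the same in both classes.

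The DNA of the members, read in 300 bp windows around the region's centre, fell between that of shared promoters and that of distal regions. The mean GC content was 58.2% in members, 64.0% in shared promoter regions, 46.9% in TGFβ-only distal regions and 55.5% in windows on all 86803 annotated starts. A window was called CpG-rich at a GC content of at least 55% and an observed over expected CpG ratio of at least 0.65, and 36.5% of member windows met this (34.6 to 38.5). The share was 71.0% in shared promoter regions, 0.847% in distal regions and 33.1% on all starts. The members' CpG ratios had 2 humps, a low one where distal regions lie and a high one where shared promoters lie. Of the CpG-rich members 84.1% covered their start, and of the others 42.1%. Among regions of the TGFβ list at a start, 12.4% of those that were CpG-rich were members (11.6 to 13.1) and 37.5% of the others were (36.0 to 39.0).

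CpG content also separated the members by presence in the 10 min list. The CpG-rich ones were present in 75.1% (72.1 to 77.9) and the others in 42.7% (40.2 to 45.2). With both features combined, CpG-rich members over the start were present in 80.5%, CpG-rich members beside the start in 46.7%, other members over the start in 59.6% and other members beside the start in 30.4%. All 10 members whose sequences are printed above cover a start, as their choice required. In the 10 min list were 9 of them, all but Nuak1, against 54.5% of all members.

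**Figure D4:**
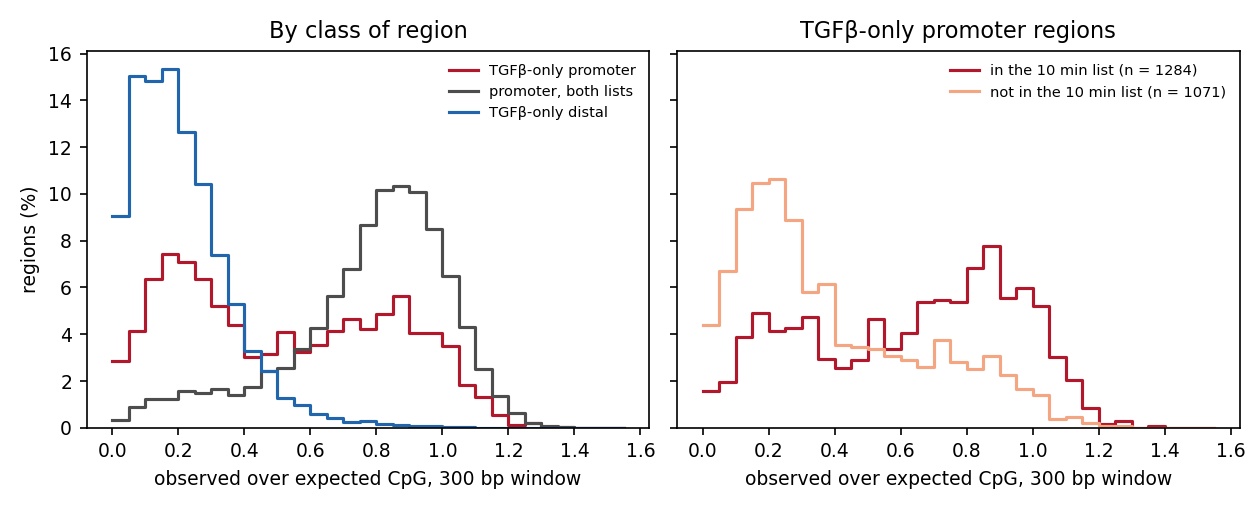
Observed over expected CpG ratio in the 300 bp window around each region's centre, in bins of 0.05. Left, TGFβ-only promoter regions (red) have a hump with distal regions (blue) and one with shared promoter regions (grey). Right, members in the 10 min list (dark red, 646 of 1284 CpG-rich) are spread over both humps. The others (light, 214 of 1071 CpG-rich) lie mostly in the low one.

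Short motifs, looked for on both strands, followed the same gradient. A match to TGANTCA was in 20.1% of member windows (18.5 to 21.8), in 6.69% of shared promoter windows (6.18 to 7.24), in 44.5% of TGFβ-only distal windows (43.7 to 45.2) and in 6.51% of windows on all starts. The difference from shared promoters held within CpG classes in part. Among windows that were not CpG-rich, 29.1% of members held a match (26.9 to 31.5) and 15.7% of shared promoters (14.4 to 17.2), while among CpG-rich windows a match was in 38 of 860 members (3.24% to 6.01%) and in 183 of 6102 shared promoters (2.60% to 3.46%). CAGACA, letters that Smad proteins are known to bind, was in 23.8% of member windows, 14.7% of shared, 34.3% of distal and 20.5% of all start windows. CCGGAAG, the core of many ETS factor sites at CpG-rich promoters, went the other way, with 8.54% of member windows, 17.7% of shared, 1.72% of distal and 8.84% of all start windows. A consensus of CTCF, the insulator protein, was matched in 2.89% of member windows, 0.850% of shared, 4.65% of distal and 0.483% of all start windows. TATAAA on the strand of the gene, at 40 to 15 bp upstream of the nearest start, was found for 1.19% of members (0.824 to 1.71) and 0.756% of shared promoter regions (0.594 to 0.963).

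Members with an AP-1 match were less often in the 10 min list than the rest. It held 177 of 473 (37.4%, 33.2 to 41.9), against 58.8% of members without a match (56.6 to 61.0). In distal regions the same split gave 27.9% and 29.0%. Shared promoter regions had the order of the members, with 94.1% (91.9 to 95.7) and 98.3% (98.0 to 98.5). Within the members the match was most frequent where the gene already had a vehicle region at another promoter, at 35.9% (31.4 to 40.6), and stood at 18.0% at sole promoters and 15.4% at alternative promoters of genes without a vehicle region. It was in 33.7% of members at downstream promoters and in 9.52% at the most upstream ones. Members that did not cover the start held it in 31.9% (29.1 to 34.9) and those that did in 11.3%. Shared promoter regions had the same order, with 28.3% beside the start (24.8 to 32.0) and 5.06% over it (4.60 to 5.56). The part of position in the difference between members and shared promoter regions was not tested. Position, CpG content and the match were not separated further.

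The members reached 2493 genes, that is 6.69% of the 37252 annotated, and 2076 of 22350 protein-coding genes, or 9.29%. Of the 2493 genes 1992 (79.9%, 78.3 to 81.4) had no vehicle region at any start, and 1590 of these were protein-coding. Members were chosen for overlapping no vehicle region, so a high share is in part built in and is a description. It was 53.1% when only overlapping or touching intervals were merged. Of the 1992, 1211 had a region of the 10 min list at a start. Of the 22350 protein-coding genes 10643 had a TGFβ region at a start and 9163 a vehicle region. Most genes had a single member, and 93 had 2 or more. Plec, which encodes the cytoskeletal linker plectin, and Tnk2, which encodes a non-receptor tyrosine kinase, had 4 each.

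Among protein-coding genes with no vehicle region, the 8 widest members at the score cap that covered the start ran from 1386 to 2176 bp. The widest was at Pi4k2b (a phosphatidylinositol 4-kinase; chr5:53132633-53134808), 2176 bp made of 6 peak lines. It was followed by Capg (chr6:72497685-72499443, 1759 bp), Prpf39 (a splicing factor; chr12:66137160-66138850, 1691 bp) and Gnb4 (a G protein β subunit; chr3:32513865-32515508, 1644 bp). The others were at Lgr5 (a receptor for R-spondins that marks epithelial stem cells; chr10:115023283-115024720, 1438 bp), 2010003K11Rik (chr19:4497574-4498981, 1408 bp), Snx30 (a sorting nexin; chr4:59818537-59819942, 1406 bp) and Vav2 (a guanine nucleotide exchange factor; chr2:27282492-27283877, 1386 bp). All but the Gnb4 region were in the 10 min list. In 6 of the 8 the centre lay in an intron, since the merged region ran from the start into the gene.

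At alternative promoters of genes with a vehicle region elsewhere, the 6 widest members at the cap were at Tnk2 (chr16:32659621-32660983, 1363 bp), Tmem63a (a mechanosensitive channel; chr1:182874758-182876102, 1345 bp), Tsc22d1 (chr14:76814023-76815047, 1025 bp), Tulp4 (chr17:6106310-6107040, 731 bp), Cic (a transcriptional repressor downstream of receptor kinases; chr7:26063606-26064312, 707 bp) and Nuak1 (chr10:83854804-83855499, 696 bp). Those at Tmem63a, Tsc22d1, Tulp4 and Cic were in the 10 min list and those at Tnk2 and Nuak1 were not. The members at Tnk2 and Cic lay beside the start and the other 4 over it.

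Among members nearest to a lincRNA gene or an antisense transcript, the widest were at BC039771, a lincRNA gene (chr2:145500882-145502677, 1796 bp, score 898), at Airn, the antisense RNA of the imprinted Igf2r locus (chr17:12933182-12934831, 1650 bp, score 708), at Gm14488 (chr2:30572664-30574142, 1479 bp, score 930) and at the antisense transcript Gm14002 (chr2:125043102-125044534, 1433 bp, score 896). The first 3 were in the 10 min list and the last was not. The widest at miRNA genes were at AC155640.1 (chr10:59672044-59673493, 1450 bp, not in the 10 min list) and Mir1932 (chr11:119251026-119251578, 553 bp, in it), and both lay beside the annotated start of the precursor, which is not the start of the primary transcript.

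Genes of 14 pathway lists were looked up next, against the 9.29% of protein-coding genes that had a member. The lists were put together with earlier results of these data known, so their counts are descriptions. Among TGFβ ligands, receptors and Smads, 20 of 36 genes had a vehicle region at a start and 4 (11.1%) had a member, each at a gene without a vehicle region and each in the 10 min list. These were the ligands Tgfb2 (over its start, 460 bp, score 677), Tgfb3 (237 bp, 722) and Gdf11 (205 bp, 673) and the co-receptor Eng (510 bp, 1000). No receptor kinase and no Smad gene had a member. Among feedback genes and antagonists 3 of 20 had one, namely Tgif2, a Smad corepressor, Fst, which binds activins, and Fstl3, its relative. The Tgif2 member lay beside the Tgif2 start and nearest to the gene Gm14230. The Fst member lay beside its sole start, and the Fstl3 member over the downstream one of its 2 promoters. Of these members the one at Fst was in the 10 min list.

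Transcription factors of the epithelial to mesenchymal transition had a member at 7 of 21 genes (33.3%). Zeb1, a repressor of epithelial genes, had one over its most upstream promoter (chr18:5591580-5591945, 366 bp, score 1000), Twist2 one over its sole promoter (chr1:93697915-93698495, 581 bp, score 687) and Sox9 one over its most upstream promoter (chr11:112643349-112643863, 515 bp, score 1000). These 3 genes had no vehicle region at a start, and all 3 members were in the 10 min list. The Runx2 member (chr17:44872601-44873162, 562 bp, score 672), also in the 10 min list, lay nearest to the antisense gene Gm10497. Tcf4 had its member over the fifth of its 8 promoters (313 bp, score 926) with a vehicle region at another, and it was not in the 10 min list. Snai3, with a vehicle region at the same promoter, and Prrx2 had members beside their starts. Of the 21 genes 11 had a vehicle region at a start, and a region that overlaps one cannot be a member. Snai1, Snai2 and Zeb2 had no member, which does not mean that their starts were closed, and Twist1 had no TGFβ region at a start at all.

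Genes of actin, contractility and the mesenchymal state had a member at 12 of 44 (27.3%). A vehicle region at another start was present at 9 of the 12. The tropomyosin gene Tpm1 had a member over its most upstream promoter (chr9:66896906-66897534, 629 bp, score 816, in the 10 min list). Tns1 had one over the middle of its 3 promoters (chr1:74044697-74045116, 420 bp, score 778, in the 10 min list) and Tns3 one over the last of 4 (chr11:8368525-8369047, 523 bp, score 694, not in it). At Actn4, Mkl1, Mkl2, Tpm3, Cald1 and Palld the members were intronic and beside a start. The 3 genes without a vehicle region were Actg1, Flnc and Pdlim7, a gene of an actin-associated PDZ and LIM protein (337 bp, score 974). Acta2, Tagln, Cnn1 and Myl9, smooth muscle type contractile genes, had no TGFβ region at a start.

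Cytokine and growth factor genes had a member at 12 of 48, and 11 of these genes had no vehicle region. Pdgfb, which recruits mesenchymal cells, had the widest (chr15:79844197-79845556, 1360 bp, score 693), followed by Vegfb (874 bp, 751), and both were in the 10 min list. The chemokine genes Ccl2 (chr11:81848899-81849273, 375 bp, score 1000) and Ccl20 (258 bp, score 963) had members over their starts that were in the 10 min list. Among those not in it were the members at Csf2, Cxcl5, Dll1, Wnt5b, Wnt7b and Wnt9a. Edn1, the gene of the vasoconstrictor endothelin 1, had one beside its start (295 bp, score 1000) that was. In all, 5 of the 12 genes had a member in the 10 min list.

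Integrin genes had a member at 5 of 26 (19.2%), all in the 10 min list. Itga2, the collagen-binding chain, had one over its sole start (chr13:115722040-115722424, 385 bp, score 1000), and Itgb5, a vitronectin receptor chain, one over its most upstream start (206 bp, score 1000). Those at Itgb2 and Itgb7, chains of leukocyte integrins, lay in introns over 1000 bp from the start by their centres, and Itga2b had a vehicle region at another start. Matrix genes had a member at 5 of 56 (8.93%), none with a vehicle region. These were Lamb3 (chr1:195127402-195128302, 901 bp, score 1000), Loxl4, a lysyl oxidase relative (511 bp, 647), the collagen gene Col12a1 (332 bp, 705), and the protease inhibitor genes Timp1 (chrX:20447137-20447437, 301 bp, score 1000) and Timp3 (186 bp, 778). All but the Col12a1 member were in the 10 min list.

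The other lists held few members. Of the AP-1 family 15 of 19 genes had a vehicle region at a start, and only the small Maf genes Mafg and Mafk had members in that list, beside a vehicle region at the same gene. Mafg had 2 members, the wider of 937 bp with a score of 929. Among ETS genes 3 of 25 had one (Elf4, Ehf and Elk3). Epithelial junction and regulator genes had one at 5 of 42 (11.9%). Pkp2, a desmosomal plakophilin, had a member over its sole start (515 bp, score 991, in the 10 min list), while Cldn4, Pkp3, Ovol2 and Pvrl1 had narrow ones of 169 to 250 bp beside the start. The YAP-TEAD list gave 2 of 20 (Tead2 and Tead3) and the cell cycle list 2 of 23. The cell cycle genes were Myc, with one over its upstream start (chr15:61816517-61817244, 728 bp, score 985) and one downstream (262 bp, 705), both in the 10 min list, and Ccnd1 (255 bp, 648), which was not in it. MAPK immediate-early and feedback genes gave 5 of 35 (14.3%), all without a vehicle region, with Nr4a1 (432 bp, 701), Btc, an EGF receptor ligand (640 bp, 785), and Nr4a3 (187 bp, 1000) over their starts. Mammary regulators gave 2 of 17, Foxa1 and again Sox9.

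**Figure D5:**
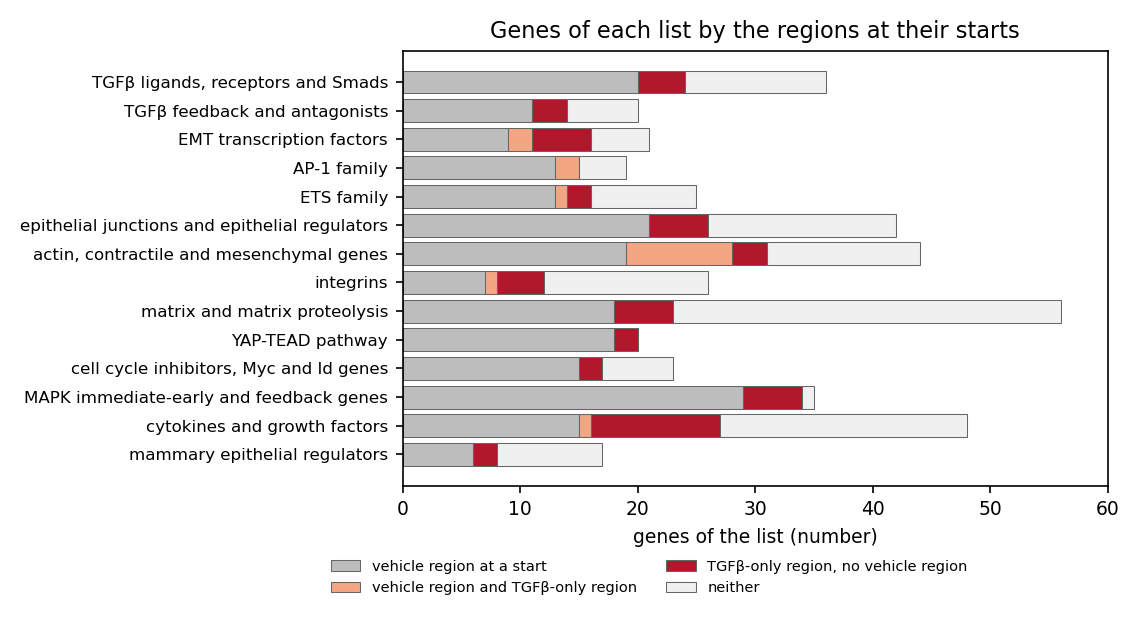
Genes of each list by the regions at their starts (number of genes). Dark red, a TGFβ-only promoter region and no vehicle region; light red, both; grey, a vehicle region and no TGFβ-only region; white, neither of these. Actin and mesenchymal genes hold 9 genes with both, and cytokine genes 11 without a vehicle region.

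Markers of cell types were checked in the same way. Of 10 luminal epithelial markers 4 had a vehicle region at a start, among them the keratin genes Krt8 and Krt18. Cdh1 and Epcam, which define epithelium, had neither a vehicle nor a TGFβ region at a start, and Cdh1 had a region in the 10 min list. Vehicle regions lay at 1 of 10 basal, 1 of 10 fibroblast, 1 of 10 endothelial, 1 of 10 adipocyte and no leukocyte, neuron or skeletal muscle markers. Members lay at 3 luminal (Krt19, Cldn4 and Muc1), 2 endothelial (Kdr and Esam), 2 leukocyte (Cd68 and Cd14), 2 adipocyte (Cidec and Pparg) and 1 neuronal marker (Snap25). No basal, fibroblast or skeletal muscle marker had one. Of these 10 members only that at Pparg was in the 10 min list, and only those at Muc1, Cd14 and Cidec lay over a start. Among all protein-coding genes 9.29% had a member, and no difference from that share was tested in lists this short.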

How the data were processed

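The 3 deposited peak lists, 1 row per peak line, came from paired-end ATAC-seq reads of NMuMG cells. The authors called peaks with MACS2 2.1.2 on mm9 and gave each interval a score, a scaled IDR value with a lower limit of 540 in these lists and a cap of 1000. The lists give no counts. Read totals per library are stated in the study's reporting. They entered no calculation here and served only to compare the complete medium libraries in words. Steps of this work ran in Python 3.11.15 with scipy 1.17.1. Intervals were refined, overlapped by at least 1 bp, and assigned to the start nearest to the region's centre (ties: protein-coding first). The study annotated with UCSC genes and GENCODE vM1 was used here, on 37252 genes. Sequences came from NCBIM37, the mm9 assembly. Wilson intervals are at 95%. The step that finds members was tested on simulated lists.

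Named were the 8 widest members at the cap over a start of a protein-coding gene without a vehicle region, the 6 widest at the cap at an alternative promoter with one elsewhere, the 4 widest at lincRNA or antisense genes, the 2 widest at miRNA genes, and list genes with a member over a start, up to 30, widest first. Other list genes, edge cases, genes with several members and the ribosomal group were named after their values were seen. Members and lists were chosen with earlier results of these data known. Alternatives were the interval width, merging, start window, gap to vehicle regions, score, transcript set, promoter joining and sequence window.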

Additional observations from a re-analysis of the deposited data

How the results depend on the processing

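Of 38 values recomputed under the alternatives, 11 stayed within the interval of the reported share, or within 1.5 times the reported count, and 27 moved. The cause was not tested beyond what each alternative itself changes. With intervals of at least 300 bp in all lists the share in the 10 min list was 69.0%, the protein-coding share 89.2%, the share at genes with several promoters 54.6% and the share of genes with no vehicle region 86.3%. With merging of overlapping or touching intervals only, there were 3849 members, 56.9% of them in the 10 min list, 88.7% protein-coding, and 53.1% of genes had no vehicle region. With a window of 200 bp around starts these shares were 64.5%, 90.4% and 85.5%, an AP-1 match was in 13.8% and a CpG-rich window in 48.1%. Counting vehicle regions under 1000 bp away as shared gave 77.8% of genes with no vehicle region. At the score cap there were 375 members, 77.3% in the 10 min list, 91.2% protein-coding, 60.5% at genes with several promoters, 25.1% with an AP-1 match and 38.9% CpG-rich. With starts of protein-coding transcripts only, 60.9% were in the 10 min list, 100% protein-coding by construction, 42.4% at genes with several promoters, and 84.5% of genes had no vehicle region. Joining starts at gaps under 200 or 5000 bp gave 61.4% and 44.6% at genes with several promoters. A window of 100 bp on each side gave an AP-1 match in 16.7%. No paired analysis was possible because the 2 complete medium conditions had 1 list each and the 10 min samples shared 1. With no counts and no replicate lists, no difference between conditions could be tested, and a region missing from a list may have been open below its threshold.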

Other observations

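Several small groups of members were not described above. Of the 611 loci annotated as SNORA17, 16 were the nearest start of a member. Among these members 2 covered the start and 2 were in the 10 min list. They were 16 of the 25 members at snoRNA genes in the shares above. For shared promoter regions 2 had a SNORA17 locus as the nearest start. Olfactory receptor genes (symbols starting with Olfr) had a member at 7 of 1251, and vomeronasal receptor genes (Vmn) at 2 of 437. Starts of protein-coding genes on both strands were in reach of 94 members (3.99%, 3.27 to 4.86) and of 1032 shared promoter regions (12.0%, 11.3 to 12.7). By chromosome, members made up between 18.3% of TGFβ regions at a start on chromosome 8 (15.3 to 21.7) and 27.8% on chromosome X (23.4 to 32.6). These groups were picked after their values were seen and were not tested.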
